A study of Mus musculus with 3 samples.

Results

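The protein tyrosine phosphatase genes are described here in normal mouse thymus. They were chosen by symbol alone, as every protein-coding gene named Ptpn with a number or Ptpr with a letter, which left out Ptprcap, the gene of a CD45-associated protein that is no phosphatase. This gave 37 of the 52636 gene identifiers in the count tables, or 37 of 21896 protein-coding genes. Of the 37, 20 were receptor-type genes (Ptpr symbols) and 17 were non-receptor genes (Ptpn symbols). The study set lymphomas lacking Cic, which encodes the transcriptional repressor capicua, against thymus of control mice. The samples used were 3 control thymus libraries from C57BL/6 mice of the genotype Cic flox/flox that had been given tamoxifen (TAM), called thymus 1, 2 and 3. The labels of these mice name no Cre, age or sex. The lymphomas are not analysed here, so there is no contrast between conditions, and the comparisons are between genes and between the 3 thymi.

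Tyrosine phosphatases remove the phosphate that tyrosine kinases add to proteins. The classical members do this through a loop in which a cysteine attacks the phosphate and an arginine holds it. Receptor-type members span the plasma membrane, and non-receptor members work in the cytoplasm, on membranes inside the cell or in the nucleus. In developing T cells they set how strongly the T cell receptor signals: CD45 keeps the kinase Lck ready for use, while SHP-1, PEP and TC-PTP limit signalling by the receptor or by cytokines.

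The catalytic loop is what the members share in sequence. It was searched for in the longest complete coding sequence of each gene (GENCODE M21, GRCm38) as a histidine codon, a cysteine codon, any 2 codons, a glycine codon, any 2 codons and an arginine codon, 24 bases in all. At least 1 such loop was found in all 37 genes, and 2 were found in 9, all of them receptor-type. Only 1 was found in the other 11 receptor-type genes and in each of the 17 non-receptor genes. The loop of Ptpn2 was not written out, which left 45 of the 46 loops. The cysteine codon was TGC in 43 of the 45 and TGT in 2, in Ptpre and Ptpru. The fourth codon was an alanine codon in 38 of the 45. It was the aspartate codon gac in Ptprn and Ptprn2, whose proteins are known to lack activity, an asparagine codon in a loop of Ptprk, Ptprm, Ptprt and Ptpru, and the serine codon tct in Ptpn23. The loops below, written 5′ to 3′ with the cysteine and arginine codons in capitals, are those of 4 genes known from lymphocytes, of LAR with both its loops, and of 4 genes in which the fourth codon was not that of alanine. The coordinates span an intron where the loop is split between exons.
Ptprc (chr1:138080255-138080844, minus strand): cacTGCagtgctggtgttgggCGT
Ptpn6 (chr6:124722063-124724964, minus strand): catTGCagcgctggcatcggcCGC
Ptpn7 (chr1:135139271-135141958, plus strand): cacTGCagtgcagggatcggcCGG
Ptpn22 (chr3:103876730-103877320, plus strand): cacTGCagtgccggctgcggaAGG
Ptprf, loop 1 (chr4:118212234-118212334, minus strand): catTGCagtgcgggtgtggggCGC
Ptprf, loop 2 (chr4:118210489-118210624, minus strand): cacTGCagtgctggtgtgggcCGC
Ptpru, loop 2 (chr4:131769873-131771174, minus strand): catTGTctcaacgggggtggcCGC
Ptpn23 (chr9:110386141-110386252, minus strand): cacTGCagctctggggtgggcCGC
Ptprn (chr1:75248151-75248733, minus strand): cacTGCagtgacggtgcagggAGG
Ptprn2 (chr12:117253649-117255561, plus strand): catTGCagtgacggcgccggcAGG

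Promoters of the members were of both kinds known in mammals, rich and poor in CpG. RefSeq promoter windows on GRCm38.p6 were matched by symbol for 32 of the 37 genes, 46 windows in all, and the 250 bases before each start were read. The ratio of observed to expected CpG was 0.6 or more in 25 of 46 windows (54.3%), against 9506 of 21255 windows of protein-coding genes (44.7%). The windows below, 5′ to 3′ on the gene's strand with each CpG in capitals, belong to the 3 genes with the highest level per length and to Ptpn1 and Ptpn11, which most tissues express. They were chosen after their values were seen.
Ptprc (chr1:138175306-138175555, minus strand): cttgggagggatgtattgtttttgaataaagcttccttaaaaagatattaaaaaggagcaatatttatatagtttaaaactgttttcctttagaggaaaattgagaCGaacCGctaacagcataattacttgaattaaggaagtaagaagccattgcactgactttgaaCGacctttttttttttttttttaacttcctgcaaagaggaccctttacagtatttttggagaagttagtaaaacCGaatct
Ptpn6 (chr6:124738710-124738959, minus strand): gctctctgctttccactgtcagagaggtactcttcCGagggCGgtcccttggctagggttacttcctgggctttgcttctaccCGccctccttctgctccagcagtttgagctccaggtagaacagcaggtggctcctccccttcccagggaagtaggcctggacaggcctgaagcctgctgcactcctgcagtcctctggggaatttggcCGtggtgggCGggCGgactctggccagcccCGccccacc
Ptpn7 (chr1:135132450-135132699, plus strand): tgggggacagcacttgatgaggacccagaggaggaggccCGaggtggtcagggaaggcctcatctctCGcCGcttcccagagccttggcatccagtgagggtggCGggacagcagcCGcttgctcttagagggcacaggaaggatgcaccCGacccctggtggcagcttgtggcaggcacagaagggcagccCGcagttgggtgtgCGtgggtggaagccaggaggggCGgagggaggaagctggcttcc
Ptpn1 (chr2:167932077-167932326, plus strand): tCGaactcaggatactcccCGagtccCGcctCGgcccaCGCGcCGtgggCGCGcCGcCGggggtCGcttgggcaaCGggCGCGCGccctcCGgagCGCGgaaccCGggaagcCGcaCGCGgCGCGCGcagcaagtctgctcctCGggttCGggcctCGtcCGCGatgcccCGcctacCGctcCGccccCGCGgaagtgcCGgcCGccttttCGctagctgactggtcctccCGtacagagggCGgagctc
Ptpn11 (chr5:121191398-121191647, minus strand): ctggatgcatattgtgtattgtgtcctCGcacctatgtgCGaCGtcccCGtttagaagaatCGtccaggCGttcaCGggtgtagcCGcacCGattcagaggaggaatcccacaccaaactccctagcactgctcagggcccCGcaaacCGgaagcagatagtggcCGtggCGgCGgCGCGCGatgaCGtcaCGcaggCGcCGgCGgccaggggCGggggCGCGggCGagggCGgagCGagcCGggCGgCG

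The window of Ptprc held 4 CpG in a sequence of 31.6% GC, that of Ptpn6 held 7 and that of Ptpn7 held 9. Those of Ptpn1 and Ptpn11 held 41 and 31. The ratio of observed to expected CpG was 0.654 for Ptprc, 0.282 for Ptpn6 and 0.35 for Ptpn7. With few CpG but low GC, the window of Ptprc thus reached the ratio threshold used above, and those of Ptpn6 and Ptpn7 did not. Window 2 of Ptprc (0.237) and of Ptpn7 (0.258), not shown, lay below it. The window of Ptpn22, another gene of lymphocytes, held 5 (observed over expected, 0.331), and those of Ptpn4, Ptpn9 and Ptpra held 36, 26 and 25. Across the 32 genes, the CpG ratio of window 1 and the level per kilobase had a Spearman rho of 0.091, given as a description only. The 2 sequences that capicua is known to bind were looked for on both strands. TGAATGAA was in 2 of 46 windows (4.35%), against 0.964% of all protein-coding windows, and TGAATGGA in 1 of 46 (2.17%), against 0.884%. The ETS sequence CCGGAAGT was in 0 of 46 windows, against 3.79%. The matches lay in Ptpn21, as its reverse complement, in Ptpn5 and in Ptprj, and are shown within 60 bases with the match in capitals. Each match lay inside the annotated gene, at a start downstream of the outermost one. On the minus strand, those outermost starts are at 98737405 for Ptpn21, 47133684 for Ptpn5 and 90580647 for Ptprj. The windows at the outermost starts held no match. A match is not a binding site. By level per length these genes ranked 23, 32 and 19 of the 37.
Ptpn21 (chr12:98734833-98734892, minus strand): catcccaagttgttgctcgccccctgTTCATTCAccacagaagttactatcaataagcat
Ptpn5 (chr7:47132785-47132844, minus strand): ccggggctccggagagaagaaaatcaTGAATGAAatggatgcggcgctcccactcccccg
Ptprj (chr2:90479275-90479334, minus strand): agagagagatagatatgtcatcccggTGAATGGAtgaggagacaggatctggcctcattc

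The libraries held 38265510 to 44932368 reads, of which 66.4% to 69.1% were counted on genes, and the members took 0.419%, 0.402% and 0.419% of the gene reads in thymus 1, 2 and 3. Levels are CPM, read counts relative to the size of the library with TMM scaling, and errors are SDs of the 3 values. Members are ordered by level per kilobase of exon, all annotated exons of a gene merged, with the longest transcript as an alternative length. CPM itself is given to compare 1 gene between thymi. A count of 3, taken as the limit of detection, was 0.0985 to 0.122 CPM. Markers of CD4+ CD8+ double-positive thymocytes were high, with a sum over 10 genes of 12210, 11700 and 12550 CPM. Cic stood at 259, 271 and 262 CPM. In whole thymus, fewer cells of a type and less RNA per cell cannot be told apart. Of the cell type lists, red cell genes had the widest ratio between thymi, at 830.0, 37.4 and 179 CPM summed over the 5 genes found.

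Most of the family was detected. In every thymus, 33 of the 37 genes reached 1 CPM, against 58.4% of all protein-coding genes (12778 of 21896). The 33 were 17 receptor-type and 16 non-receptor genes. At 10 CPM in every thymus the count was 20 (7 receptor-type and 13 non-receptor), against 42.3%, and at 100 CPM it was 9 (4 and 5), against 11.3%. Below 1 CPM in every thymus were 4, namely Ptpru, Ptprr, Ptprh and Ptpn20, against 39.2% of protein-coding genes.

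**Figure D1:**
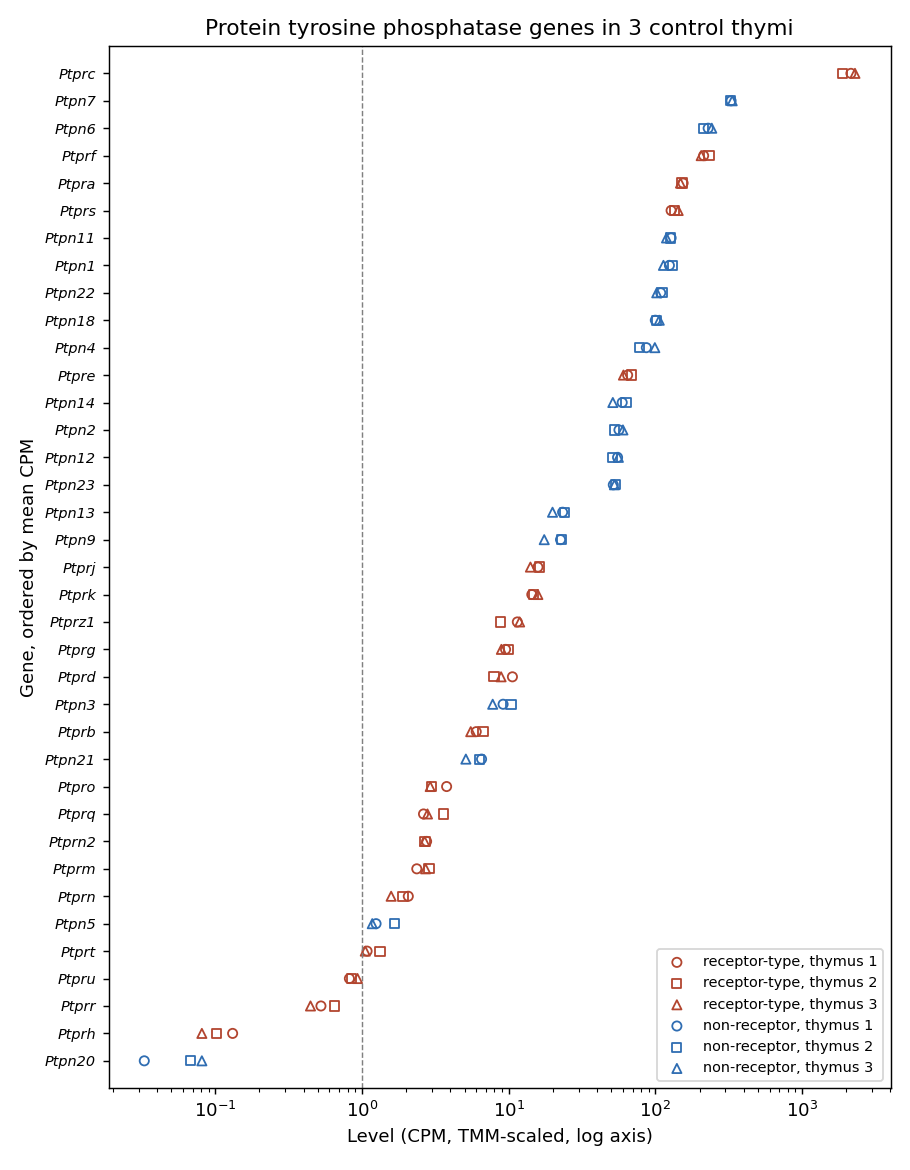
Level of each of the 37 genes in each thymus (CPM on a log axis, not divided by length, 1 symbol per thymus, red for receptor-type and blue for non-receptor genes, dashed line at 1 CPM). Ptprc stands alone near 2105 CPM, and the 3 thymi lie close together for most genes.

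Ptprc (chr1:138062861-138175708, minus strand, GRCm38), the gene of CD45, led the family in CPM and per kilobase of merged exons or of the longest transcript. It had 2150, 1874 and 2291 CPM in thymus 1, 2 and 3, with thymus 2 lowest and thymus 3 highest. Per kilobase it stood at 114.9 ± 11.6 CPM (SD, n = 3) and ranked 273 of the protein-coding genes. The annotation merges 13 transcripts of Ptprc into 18313 bases of exon, while its longest transcript has 5740. Per kilobase of that transcript its level was 367 ± 36.9 CPM and its rank 94, so the length used moved the level by a factor of 3.19.

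Next per length came Ptpn6, of the SH2-domain type, which binds phosphorylated receptors. Ptpn6 (chr6:124720707-124738714, minus strand) encodes SHP-1, an inhibitor of antigen receptor signalling. It had 229, 212 and 242 CPM, lowest in thymus 2, and 81.2 ± 5.40 CPM per kilobase. Ptpn11 (chr5:121130533-121191397, minus strand) is the other gene of the type and encodes SHP-2, which carries signals of growth factor receptors to Ras. It had 128, 126 and 119 CPM, with thymus 3 lowest, and 16.6 ± 0.621 CPM per kilobase. Per length, Ptpn6 exceeded Ptpn11 in each thymus, by 4.78, 4.50 and 5.44 times, so the ranges of the pair did not overlap.

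Among phosphatases with a kinase interaction motif, which act on MAP kinases, 1 gene carried nearly all the signal. Ptpn7 (chr1:135132700-135145317, plus strand), the gene of the haematopoietic phosphatase HePTP, had 328, 325 and 334 CPM and 53.9 ± 0.710 per kilobase. Its coefficient of variation of 1.32% was the lowest of the 35 members tested. Ptpn5, known from neurons, had 1.25, 1.67 and 1.18 CPM, highest in thymus 2. Ptprr had 0.525, 0.647 and 0.446 CPM, or 16, 19 and 11 counts. The ratio of Ptpn7 to Ptprr per length was 607 ± 119.5, a value limited by the few counts of Ptprr.

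The PEST-type genes lay close together on merged exons. Ptpn22 encodes PEP, which with the kinase Csk restrains Lck, and had 109, 111 and 102 CPM. Ptpn18 had 99.8, 102 and 106 CPM, highest in thymus 3, and Ptpn12, whose protein PTP-PEST acts on adhesion and cytoskeletal proteins, had 55.2, 51.1 and 55.9 CPM. Per kilobase of merged exon the 3 stood at 15.8 ± 0.685, 15.8 ± 0.501 and 15.4 ± 0.745 CPM, and their ranges overlapped. Per kilobase of the longest transcript Ptpn22 stood at 38.9 ± 1.68 CPM and Ptpn12 at 16.5 ± 0.797, a ratio of 2.37 ± 0.209 where merged exons gave 1.03 ± 0.0908. The merged exons of Ptpn22 measure 6775 bases and its longest transcript 2757.

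The relatives PTP1B and TC-PTP damp signalling by JAK kinases, and PTP1B also that of the insulin receptor. Ptpn1, the gene of PTP1B, had 125, 131 and 113 CPM and 22.2 ± 1.60 per kilobase, lowest in thymus 3. Ptpn2, the gene of TC-PTP, had 56.4, 52.3 and 60.04 CPM and 18.05, 16.7 and 19.2 CPM per kilobase, lowest in thymus 2. The ranges per length did not overlap, and Ptpn2 was at 0.816 ± 0.116 times Ptpn1.

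Of the receptor-type genes other than Ptprc, the highest per length were Ptprf and Ptprs of the LAR type, best known from axons and synapses, and the pair with short ectodomains. Ptprf, which encodes LAR, had 213, 232 and 205 CPM and 23.7 ± 1.502 per kilobase, highest in thymus 2. Ptprs had 128, 136 and 143 CPM and 9.04 ± 0.499 per kilobase, highest in thymus 3. The third LAR-type gene, Ptprd, had 10.6, 7.93 and 8.87 CPM and 0.400 ± 0.0593 per kilobase. Per length Ptprs was at 0.383 ± 0.0370 times Ptprf on merged exons and at 0.701 ± 0.0677 times on the longest transcripts. Ptpra, whose protein activates Src-family kinases, had 154, 152 and 148 CPM and 13.95 ± 0.286 per kilobase. Ptpre, its closest relative, had 64.7, 68.8 and 60.5 CPM and 6.34 ± 0.406 per kilobase, which was 0.454 ± 0.0254 times Ptpra. The 10 markers of thymic epithelium all reached 1 CPM in every thymus and summed to 2097, 2130 and 2256 CPM. Their part in the level of any of these genes was not tested.

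**Figure D2:**
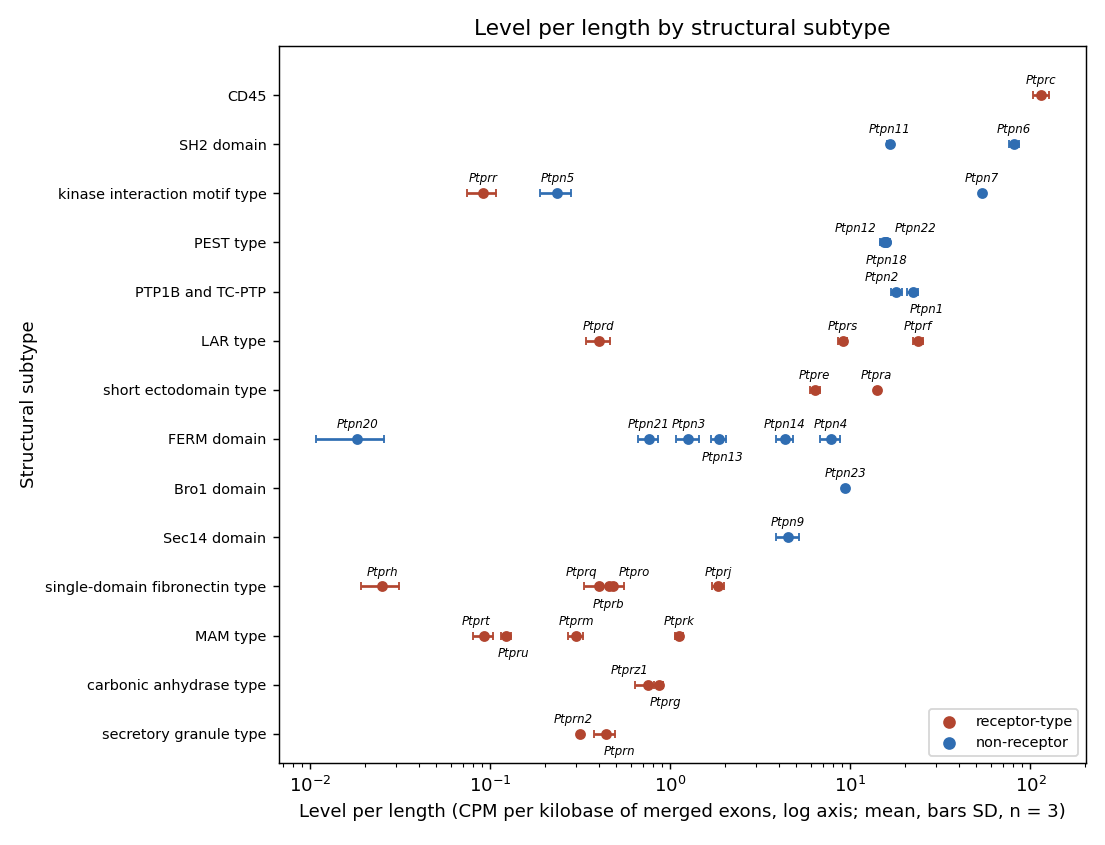
Mean level per kilobase of merged exons for each gene (log axis, bars SD, n = 3), with subtypes ordered from the highest share of the family's summed level at the top. Within the kinase interaction motif, LAR and FERM types the members are spread over 1 or more powers of 10, while the PEST-type genes coincide near 15.8.

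The genes listed under the FERM domain, a domain of proteins at the cell cortex, were led by Ptpn4. It had 86.7, 77.5 and 99.1 CPM and 7.75 ± 0.959 per kilobase, with thymus 2 lowest and thymus 3 highest. Its relative Ptpn3 had 9.16, 10.4 and 7.78 CPM, in the opposite order, and both proteins are known to act on the zeta chain of the T cell receptor complex. The ratio of Ptpn4 to Ptpn3 per length was 6.05, 4.79 and 8.15 in thymus 1, 2 and 3. Ptpn14, whose protein binds the Hippo pathway factor YAP, had 59.4, 63.0 and 51.3 CPM. Ptpn13 had 23.3, 24.1 and 19.9 CPM, and Ptpn21 had 6.53, 6.33 and 5.11. All 3 were lowest in thymus 3. Ptpn20 had 1, 2 and 2 counts, at or under 3 counts in each thymus. It was listed here, but its coding sequence has 426 codons, against 913 in Ptpn3. A FERM domain was not searched for in it, so its place in this type is not established.

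The remaining non-receptor genes have a domain of their own. Ptpn23 encodes HD-PTP, a Bro1-domain protein that sorts receptors into endosomes, and had 51.6, 53.7 and 52.6 CPM. Its coefficient of variation was 1.93%. Ptpn9, whose protein has a Sec14 lipid-binding domain and acts on secretory vesicles, had 22.6, 22.9 and 17.5 CPM. Thymus 3 stood below the other two thymi.

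The adhesion-like receptor genes were low. Ptprj, the gene of CD148, which also acts on Src-family kinases in blood cells, led the single-domain fibronectin type with 15.8, 16.3 and 14.1 CPM and 1.84 ± 0.140 per kilobase. It shares 9.65% of its 50-base stretches with Gm13768, so some of its reads may have been dropped as mapping to both. Ptprb encodes VE-PTP of endothelium and had 6.01, 6.67 and 5.51 CPM. The 10 endothelial markers all reached 1 CPM in every thymus and summed to 131, 145 and 121 CPM. Most of that was Pecam1, and the other 9 summed to 28.5, 31.8 and 28.6. The order of Ptprb over the thymi was found in 3 of the 10, Pecam1, Cdh5 and Cldn5. Their part in the level of Ptprb was not tested. Ptpro, known from kidney podocytes, had 3.77, 2.96 and 2.92 CPM, and Ptprq, known from inner ear hair cells, had 2.63, 3.61 and 2.80. Ptprh had 4, 3 and 2 counts.

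The MAM type takes part in contacts between cells. Ptprk, which in the rat is tied to the maturation of CD4+ T cells, led it with 14.4, 14.7 and 15.8 CPM and 1.12 ± 0.0564 per kilobase. Ptprm had 2.36, 2.86 and 2.71 CPM. Its exons share 457 bases with AC139750.1 on the same strand. AC139750.1 was not among the genes counted, so reads of either gene from these bases may stand in the count of Ptprm, which is uncertain. Ptprt lay just above 1 CPM with 1.08, 1.33 and 1.05, and Ptpru just below with 0.821, 0.851 and 0.932. Of the carbonic anhydrase type, which binds contactins, Ptprg had 9.52, 9.98 and 8.91 CPM and Ptprz1 had 11.5, 8.78 and 11.9. Thymus 2 was lowest for Ptprz1 and highest for Ptprg. The secretory granule genes Ptprn and Ptprn2, known from hormone-secreting cells, had 2.07, 1.91 and 1.58 CPM and 2.76, 2.69 and 2.67 CPM. Of 6 parathyroid and neuroendocrine markers, 3 reached 1 CPM in every thymus and 0 were at 0 in all of them. Their sum was 96.95, 49.6 and 66.5 CPM, and the granule gene Chga had 17.5, 13.6 and 15.8. Their part in the level of the granule phosphatases was not tested.

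Per length, the family's summed level was shared unevenly. Ptprc alone made up 25.8% ± 1.77 of it (SD, n = 3), with 26.2%, 23.9% and 27.4% in thymus 1, 2 and 3. The SH2-domain pair made up 21.99% ± 0.398, the kinase interaction motif type 12.2% ± 0.286, the PEST type 10.6% ± 0.269, PTP1B with TC-PTP 9.05% ± 0.373 and the LAR type 7.46% ± 0.563. The MAM, carbonic anhydrase and secretory granule types made up 0.368% ± 0.0204, 0.362% ± 0.00889 and 0.169% ± 0.0171. The share of Ptprc was 50.8% in CPM not divided by length and 43.7% per kilobase of the longest transcript, so its size depends on the length used.

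Receptor-type genes were lower than non-receptor genes at the median in each thymus. Their median level was 0.524, 0.491 and 0.424 CPM per kilobase, against 9.19, 9.55 and 9.36 for non-receptor genes, a ratio of 0.0512 ± 0.00589 (SD, n = 3). All 20 and all 17 genes were included. The ratio was 0.134 in CPM not divided by length, 0.0804 per kilobase of the longest transcript and 0.0610 over the 33 genes that reached 1 CPM in every thymus. By sum, receptor-type genes made up 39.5% ± 0.854 per length and 66.6% ± 1.45 in CPM, with Ptprc included.

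**Figure D3:**
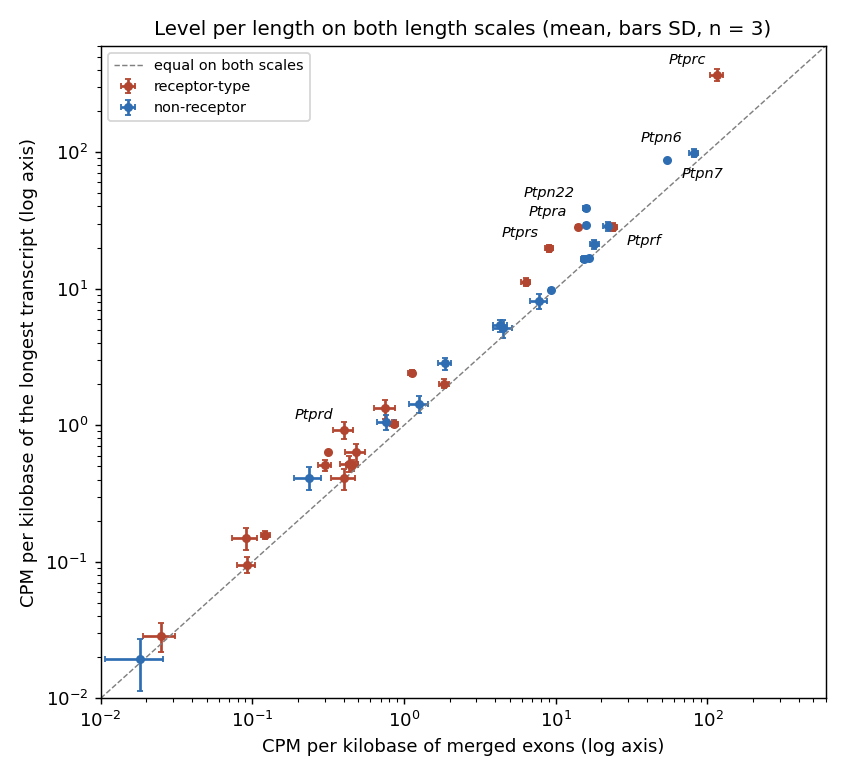
Mean level per kilobase of merged exons (x) and of the longest transcript (y) for the 37 genes (log axes, bars SD, n = 3). Genes far above the dashed line, Ptprc and Ptpn22 among them, have merged exons much longer than any 1 transcript.

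In the order of levels per kilobase of merged exons, many neighbours had overlapping ranges. Of the 36 neighbouring pairs, 20 had ranges over the 3 thymi that overlapped. Compared within each library, some of these still kept 1 order in all 3 thymi. They were Ptprf over Ptpn1 (ratio 1.07 ± 0.0299), Ptpn11 over Ptpn22 (1.05 ± 0.0201), Ptprs over Ptpn4, Ptprg over Ptpn21 and Ptprm over Ptpn5. In the other overlapping pairs the order differed between thymi. The ranges of Ptprc, Ptpn6 and Ptpn7, the top 3, did not overlap, and Ptpn7 was 2.28 ± 0.169 times the next gene, Ptprf. The ranges of Ptprf and Ptpn1 overlapped, as did the run from Ptpn2 through Ptpn11, Ptpn22 and Ptpn18 to Ptpn12. Below the top 3 this order depended on the length used. Per kilobase of the longest transcript Ptpn22 (38.9 ± 1.68 CPM) came next after Ptpn7, and Ptprf (28.3 ± 1.79) ranked 8. On that length Ptpn18 stood at 29.35 ± 0.931 CPM, Ptpn2 at 21.1 ± 1.45, Ptpn11 at 16.7 ± 0.625 and Ptpn12 at 16.5 ± 0.797.

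The spread between thymi was next compared with that of other genes. No member was called more variable than genes of like abundance: 0 of the 35 tested were called by edgeR's quasi-likelihood test (Benjamini-Hochberg threshold 0.05), against 10 of 16548 genes (0.0604%). At an unadjusted p under 0.05 there were 0 of 35, against 4.42% of all genes. The negative binomial goodness of fit called 0, against 0.737%, and the DESeq2 dispersion check called 0, against 0.489%. Ptprh and Ptpn20 had too few counts to test. Since the labels do not tie each library to a separate animal, the p-values speak only of how far these libraries differ, and that may be technical.

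The lowest p of the quasi-likelihood test was that of Ptpn4 (0.0962, adjusted p = 0.984). It was followed by Ptpn9 (0.132), Ptpn14 (0.174), Ptprz1 (0.206), Ptprd (0.280), Ptprc (0.288), Ptpn3 (0.304), Ptpn13 (0.308), Ptpn1 (0.336) and Ptprq (0.365), with adjusted p from 0.984 to 0.986. Coefficients of variation ran from 1.32% to 19.5% with a median of 7.61% in the members, against 9.06% at the median of the 16548 genes. Among genes at 10 CPM or more in every thymus the medians were 6.37% over 20 members and 6.40% over 9556 genes.

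**Figure D4:**
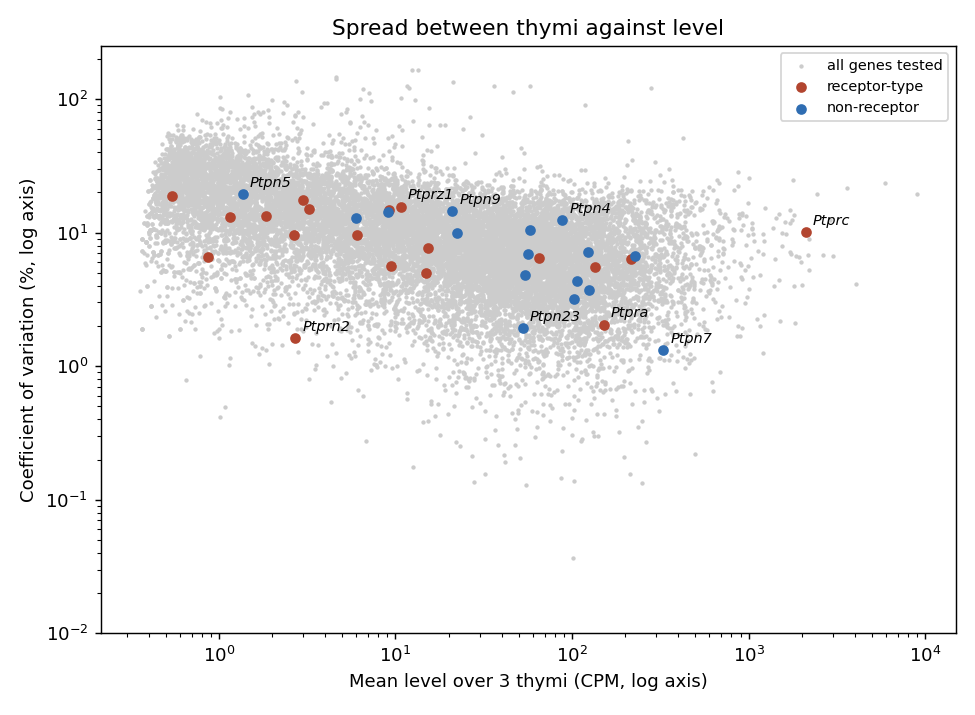
Coefficient of variation over the 3 thymi against mean level for the 35 members tested and all 16548 genes (log axes). The members lie within the cloud of other genes, with Ptpn7 at 1.32% and Ptpn5 at 19.5% at the ends of their range.

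Several members differed between thymi by more than counting error. By goodness of fit to a Poisson model in edgeR, 16 of 35 (45.7%) differed between thymi beyond counting noise (adjusted over all genes tested at 0.05), against 43.4% of all genes (7188). The share in the members was near that of all genes. Ptprc, with 65497, 55040 and 56539 counts, had the lowest adjusted p (8.45e-257), then Ptpn4 (3.76e-15) and Ptpn6 (1.31e-11). Ptpn7 was not among the 16 (0.333), and neither were Ptpra (0.280) and Ptpn23 (0.666). Leaving out thymus 1, 2 or 3 gave 15, 9 or 7 of the 35 members, against 39.7%, 26.2% and 22.3% of all genes.

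The direction of the spread differed between members. Of the 35, 17 were highest in thymus 2 (48.6%, against 38.0% of all genes) and 20 were lowest in thymus 3 (57.1%, against 39.7%). The median deviation of log2 CPM from the gene's own mean was 0.01, 0.05 and -0.07 in thymus 1, 2 and 3, against 0.00, 0.01 and -0.01 for all genes (16548). Another 8 members were lowest in thymus 2 (22.9%, against 36.0%), namely Ptprc, Ptpn6, Ptpn7, Ptpn2, Ptpn12, Ptpn4, Ptprz1 and Ptprd.

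GC content, taken from the longest transcript of each gene, moved with the deviations in thymus 2 and 3. The 3 members tested with the lowest GC content, Ptpn4 (38.4%), Ptprc (39.4%) and Ptpn2 (39.7%), were all lowest in thymus 2 and highest in thymus 3. In thymus 1 the log2 deviation and GC content had a Spearman rho of -0.036 over 35 members, against -0.157 over 16522 genes. In thymus 2 they had a Spearman rho of 0.296, against 0.408. In thymus 3 it was -0.313, against -0.288. These are descriptions across genes of the same libraries. After the trend with GC content was removed from each library, the deviation in thymus 2 was -0.04 for Ptprc, -0.03 for Ptpn4 and 0.02 for Ptpn2, where it had been -0.16, -0.17 and -0.10. For Ptpn9, with 50.9% GC, the deviation in thymus 3 was -0.22 after correction and -0.25 before. With GC content as an offset, 11 members differed beyond counting noise, against 37.7% of all genes. Of the 16 above, 10 were among them, and Ptpn11, Ptpn13, Ptpn2, Ptpn4, Ptpre and Ptprf were not, while Ptpn7 was added. After correction 15 members were highest in thymus 2 (42.9%, against 35.0%) and 17 lowest in thymus 3 (48.6%, against 38.7% of all genes). Lowest in thymus 2 were then 13 members (37.1%, against 36.0%), near the share of all genes.

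**Figure D5:**
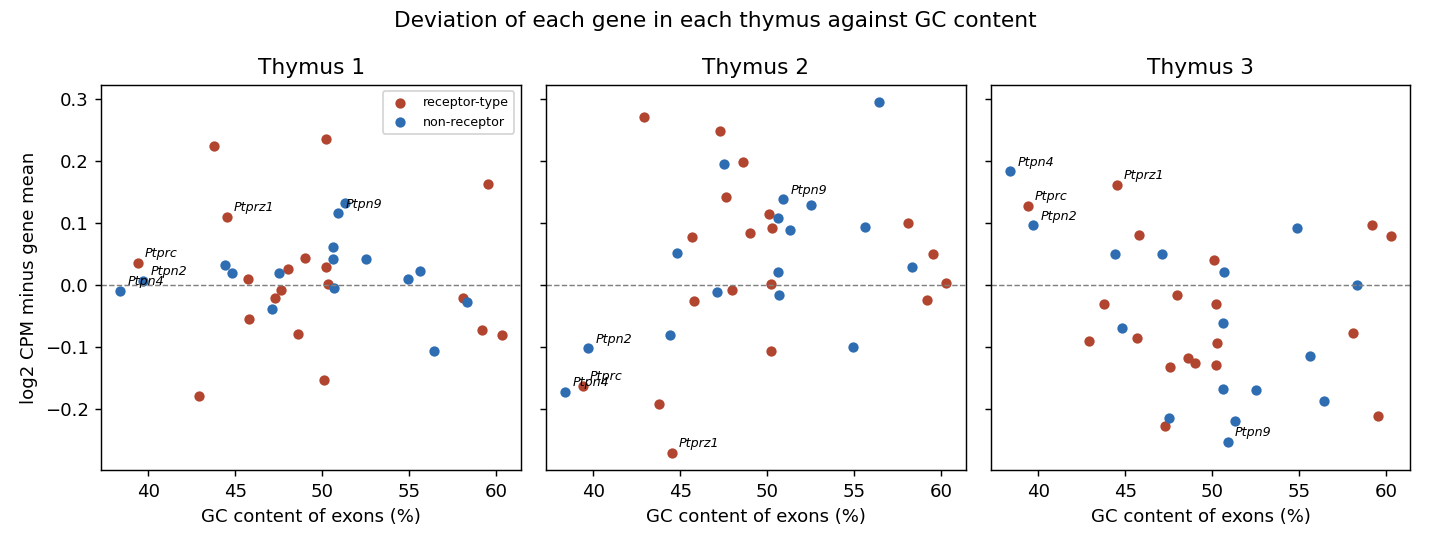
Difference of log2 CPM from the gene's own mean in each thymus against GC content, for the 35 members tested (red receptor-type, blue non-receptor). GC content is that of the gene's longest transcript, although the axis names exons. Ptpn4, Ptprc and Ptpn2, at the low GC end, lie below 0 in thymus 2 and above 0 in thymus 3.

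Reads on the opposite strand were few in most members, with or without an overlapping gene. Exons of 12 of the 37 overlap an exon of another gene on the other strand. Ptpre had the highest share of opposite-strand reads among members with 20 or more reads, 10.5% of all its reads (95% Wilson interval 9.71% to 11.2%, counting error only), and overlaps the antisense gene 5830432E09Rik, itself at 25.6 ± 1.18 CPM. Next came Ptprn (5.95%, 3.27% to 10.6%), Ptprn2 (2.97%, 1.44% to 6.00%), Ptpn9 (2.72%, 2.07% to 3.56%) and Ptpn18 (2.02%, 1.74% to 2.33%). Ptprn2 has no such overlap, and the gene beside Ptprn, Gm28294, had 0 counts. Of the other members with an overlap, Ptpn3 had 1.77%, Ptpn14 1.14%, Ptprd 0.386%, Ptprg 0.248%, Ptpn13 0.209%, Ptpra 0.171%, Ptpn6 0.146% and Ptprr 0%. Over all genes the share was 3.37%, 3.40% and 3.44%. With strand ignored, where STAR counts a read on exons of 2 genes for neither, the mean of 3 members with such an overlap was lower by more than 1 SD. Ptpn18 was then at 63.3 CPM in place of 103, Ptpra at 124 in place of 151 and Ptpn6 at 208 in place of 228.

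Ptpn7 and Ptprv start back to back. Ptprv carries a family symbol but is annotated as a processed transcript (chr1:135108497-135132594, minus strand) and so is outside the rule. Its start lies 105 bases from that of Ptpn7, which runs the other way from 135132700. Ptprv had 13.2, 12.9 and 11.99 CPM.

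Genes that work with or beside the family were given for context, from lists and not picked for how they moved. Of 26 genes of other tyrosine phosphatase classes, 24 reached 1 CPM in every thymus and 2, Dusp8 and Dusp9, were below it in every thymus. Per kilobase the highest were Ptp4a2 (88.8 ± 4.94 CPM), Dusp2 (35.96 ± 2.99) and Dusp10 (27.8 ± 2.37). Of 20 kinases and adaptors that these phosphatases act on in lymphocytes, all reached 1 CPM, led per kilobase by Lck (676 ± 40.8 CPM), Lat (357 ± 19.97) and Cd247 (114 ± 4.24). Of 22 binding partners, all reached 1 CPM, led per kilobase by Ptprcap (159 ± 2.63 CPM), which binds CD45, Sit1 (88.96 ± 4.48) and Themis (66.3 ± 8.06), which binds SHP-1. The quasi-likelihood test of edgeR called 0 genes in each of the 3 lists, with 1, 0 and 0 at an unadjusted p under 0.05 (4.42% of all genes). Beyond counting noise were 19 of 26, 19 of 20 and 16 of 22, against 43.4% of all genes. Among genes with a mean of at least 5 CPM the share was 59.6%. In thymus 1 the median levels of the lists were 29.2, 223 and 22.2 CPM. The lists were not matched to other genes by level.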

How the data were processed

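RNA of 3 control thymi was sequenced from TruSeq Stranded mRNA libraries, per the labels, a kit for polyadenylated RNA in which strand is kept. What the authors deposited are unnormalised counts of reads for each gene, with STAR 2.5.3a, DESeq2 and the build GRCm38 named in the submitters' processing notes. Each file has reads of either strand and of each strand. The annotation release they counted on is not given in the sources used here. Reverse-strand counts were used, summing to 25408442 to 30414788 per library, and the summary lines were left out of library sizes and tests. Of 52636 identifiers, 52489 matched GENCODE M21.

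Tools were edgeR 4.0.16 and, as an alternative, DESeq2 1.42.0, in R 4.3.3. The filter of edgeR (minimum 10, total 15) left 16548 genes, with TMM factors of 1.00, 1.03 and 0.971. Variability was tested with robust quasi-likelihood fits of an intercept, each gene's dispersion set against the trended prior (5.24 prior degrees of freedom, one-sided), and counting noise with the goodness of fit at a dispersion of 0, both over all genes. The GC trend was removed by lowess (span 0.3). Both tests were checked on simulated counts. Sequences came from GENCODE M21 transcripts and RefSeq promoter windows, read with Biopython 1.88.

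Members, lists and tests were chosen with earlier results of these data known. Values were named for the 15 members highest per kilobase, up to 10 with the lowest quasi-likelihood p, 3 on each side of 1 CPM, those with fewer than 10 reads in all, those with the most opposite-strand reads, and the best measured member of each subtype; the rest are given for completeness. Of the other lists the 3 highest per kilobase are named. Alternatives were other scalings, filters, strands, thresholds and lengths, a GC offset, other variability tests and each thymus left out. The labels name no animal per library.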

Additional observations from a re-analysis of the deposited data

Results flagged for a closer look

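Opposite-strand reads lie outside the counts used and exceeded 3 in every thymus, the limit that a count of 0 allows, in 10 members. Given for thymus 1, 2 and 3, Ptpre had 223, 198 and 219 such reads, Ptpn18 had 71, 49 and 58, and Ptprc had 60, 46 and 44. Ptpn14 had 21, 22 and 14, Ptpn9 had 13, 22 and 15, and Ptpn6 had 15, 5 and 8. Ptpn7 had 12, 7 and 13, Ptpra 5, 6 and 11, Ptprk 5, 5 and 6, and Ptpn3 4, 6 and 4. For Ptprc the share was 0.0846% of its reads (95% Wilson interval 0.0721% to 0.0993%), and for Ptpn7 0.115%. Genes on the other strand were counted at 779, 716 and 660 reads for 5830432E09Rik beside Ptpre, 115, 75 and 72 for Gm28417 beside Ptpn18, 25, 31 and 22 for Gm10658 beside Ptpn9, and 4, 4 and 4 for Gm20531 beside Ptpn6. They were at or near 0 for Gm26574 beside Ptpn14 (0, 2 and 2), 4930473A02Rik beside Ptpra (3, 0 and 3) and Gm12536 beside Ptpn3 (0, 0 and 1), and Ptprc, Ptpn7 and Ptprk have no such overlap.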

How the results depend on the processing

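No paired analysis was possible because there is 1 group. The count of 0 members more variable than the abundance trend was the same under all alternatives run: other scalings, filters and strands, a prior that is not robust, a GC offset, the other tests and each thymus left out. Few of all genes were called in any of them, from 8 of 16480 with DESeq2 size factors to 285 of 30857 with no filter. In the main fit it was 10 of 16548 (0.0604%), so a count of 0 members is near that background and says little about the family. Members beyond counting noise numbered 16, with 11 to 17 under other scalings, filters, strands and the GC offset, and 7 to 15 when a thymus was left out (15 without thymus 1, 9 without thymus 2 and 7 without thymus 3, against 39.7%, 26.2% and 22.3% of all genes). Fewer samples were then tested, and the cause was otherwise not tested. With all 3 thymi the share of members was 45.7%, against 43.4% of all genes. With no filter on low counts it was 43.2%, against 22.1%. At a mean of at least 5 CPM it was 61.5%, against 59.6%, and with the GC offset 31.4%, against 37.7%. Under the other scalings and strands it was 45.7% to 48.6%, against 41.7% to 46.8%. At 1 CPM or more in every thymus the count was 33 under every scaling, strand and left-out thymus, 34 at 0.5 CPM and 30 at 2 CPM. The share of Ptprc was 25.8%, 50.8% without division by length and 43.7% by the longest transcript, and 25.0% to 26.8% with a thymus left out. The ratio of receptor-type to non-receptor medians was 0.0512, then 0.134, 0.0804 and 0.0610 for CPM, the longest transcript and the genes at 1 CPM, and 0.0483 to 0.0542 with a thymus left out. Mean CPM moved by more than 1 SD in 6 of 37 members with reads of either strand and in 4 without mitochondrial genes. With DESeq2 size factors or library totals it was 0. These settings were added after the data were seen. Without mitochondrial genes all members rose, Ptprc from 2105 to 2158 CPM and Ptpn7 from 328.8 to 337.2. The 4 had the lowest coefficients of variation of those tested, 1.32% to 2.05%. With either strand Ptprc rose to 2145 CPM, Ptpn7 to 335.3 and Ptpn23 from 52.6 to 53.7, while Ptpn6, Ptpn18 and Ptpra fell. Members at about 3 counts or fewer in a thymus, Ptprh and Ptpn20, could not be told from background at this depth.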
